A study of Homo sapiens with 6 samples.

Results

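The mitochondrial protein import machinery was examined in HepG2 cells, a human line derived from hepatocellular carcinoma, after silencing of DGUOK, the kinase that phosphorylates purine deoxyribonucleosides inside mitochondria. Members were the protein-coding genes of the deposited count table whose symbols name a TIMM or TOMM protein, SAMM50, a metaxin, PAM16, a GRPEL cochaperone, a subunit of the matrix processing peptidase, CHCHD4 or GFER. This rule found 35 of 34036 genes listed, and 34 of the 35 had enough counts for a test. Polyadenylated RNA was sequenced in 3 cultures transfected with a non-targeting siRNA (siCON) and 3 transfected with a pool of siRNAs against DGUOK (siDGk), all harvested 48 h after transfection. Both groups were grown in EMEM with fetal bovine serum and transfected with Lipofectamine RNAiMAX, so a culture without transfection was not analysed here. The series' design text describes the 3 cultures of each group as independent biological replicates.

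Nearly all mitochondrial proteins are encoded in the nucleus, made in the cytosol and carried into the organelle. The TOM complex forms the entry pore of the outer membrane, and the SAM complex inserts barrel-shaped proteins into that membrane. TIM23 passes proteins with a presequence across or into the inner membrane, a motor on its matrix side pulls them in, and the matrix processing peptidase removes the presequence. Small TIM chaperones escort hydrophobic carriers through the intermembrane space to TIM22, and the MIA relay traps small cysteine-rich proteins there by oxidation. Hepatocytes are rich in mitochondria and depend on this traffic for fuel oxidation and the urea cycle.

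Total counts were 19065684, 18915508 and 10527216 in siCON 1 to 3, and 18613138, 15978314 and 21334876 in siDGk 1 to 3. The import genes took 19403 counts in siCON 3, the shallowest library, and 30859 to 41193 in the other 5. siDGk 1 stood apart in breadth, with 21057 genes with a count against 16205 to 17583 in the other 5 libraries. By the annotation 17 of the 35 members share exon bases with another gene, 7 on the same and 13 on the opposite strand, and the largest shares were 41.5% for GFER, 31.1% for TIMM23B and 30.1% for TIMM8B. Levels are given as CPM, the counts divided by the library total in units of 1e6 counts, scaled by the TMM method. TMM scales libraries by a mean log ratio over genes, with the most extreme ratios and levels trimmed.

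DGUOK itself (ENSG00000114956.19) was read first as a check of the labels. Its level was 54.4, 53.1 and 48.2 CPM in siCON 1 to 3, and 9.08, 10.53 and 6.72 CPM in siDGk 1 to 3. The groups were far apart, and siDGk cells held 0.168 times the siCON level (95% confidence interval 0.127 to 0.222). The log2 fold change, siDGk minus siCON throughout, was −2.57 with a standard error (SE) of 0.19 (edgeR quasi-likelihood test, Benjamini-Hochberg adjusted p = 1.64e-08).

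Few of the import genes were called different between siCON and siDGk cells, and the set as a whole was not tested. Calls required both an adjusted p below 0.05 and a log2 fold change beyond ±0.5. By that rule 1 of the 34 members tested was called, TOMM34, which was higher in siDGk cells, and 0 were called lower. This is 2.94% of the members, beside 14.1% of all 14476 genes tested, of which 7.42% were called higher and 6.68% lower. By edgeR 5 members (14.7%) had an unadjusted p under 0.05, beside 30.6% of all genes tested, and DESeq2 likewise called TOMM34 and no other member.

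Without the fold threshold, 2 of 34 members passed the adjusted p, TOMM34 and TIMM13, beside 19.7% of all genes tested. The 3 libraries of one group lay wholly above or below the other 3 in 8 of 34 members (23.5%), beside 36.0% of all genes tested. TOMM34, TIMM50, PAM16, TIMM8A and GFER were the 5 that lay higher in siDGk cells, and TOMM20, PMPCB and TIMM13 the 3 that lay lower. Log2 fold changes were positive in 21 members and negative in 13, beside 7450 and 7026 of all genes tested. The members had a median of 0.11, with quartiles at −0.09 and 0.22. Over all genes tested the median was 0.02 with quartiles at −0.31 and 0.35. The median of the members was 0.04 without siCON 2. With 1 library left out, 7 of 34 members changed sign and another 19 moved by over 1.5 times.

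**Figure D1:**
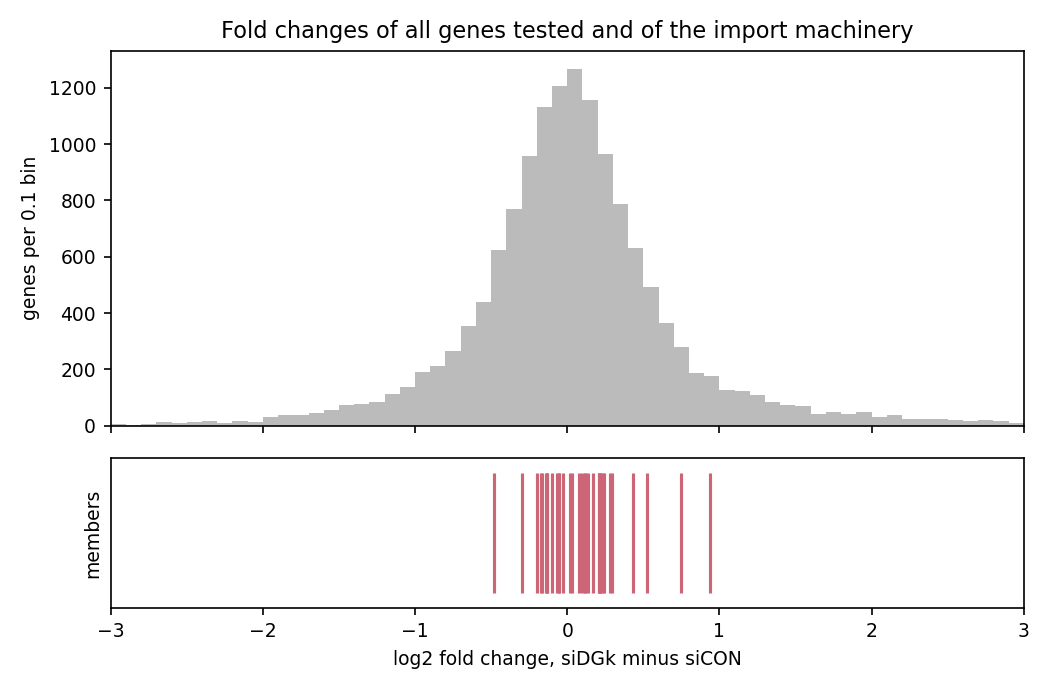
Log2 fold changes (siDGk minus siCON) of all 14476 genes tested, as a histogram in bins of 0.1 shown from −3 to 3, above those of the 34 import genes, 1 line each. The members lie between −0.48 and 0.94, and 26 of 34 lie within 0.25 of 0.

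The absolute log2 fold change was under 0.25 in 26 of 34 members (76.5%), beside 39.9% of all genes tested. The 95% confidence interval lay wholly within ±0.5 in 15 of 34 members (44.1%), beside 22.0% of all genes. It lay within ±1 in 31 of 34 members, beside 8272 of all 14476 genes tested. For the other 3, TIMM8A, PAM16 and TOMM34, a change of 1 log2 unit lay inside the interval. Members that missed the threshold are not thereby shown to be equal between the groups, and these intervals give the sizes that the data allow. Summed over all members, the level was 1857 ± 42.8 CPM in siCON cells against 1893 ± 8.68 CPM after silencing (SD, n = 3), and 1796 ± 38.6 and 1777 ± 8.48 CPM with TOMM34 left out.

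**Figure D2:**
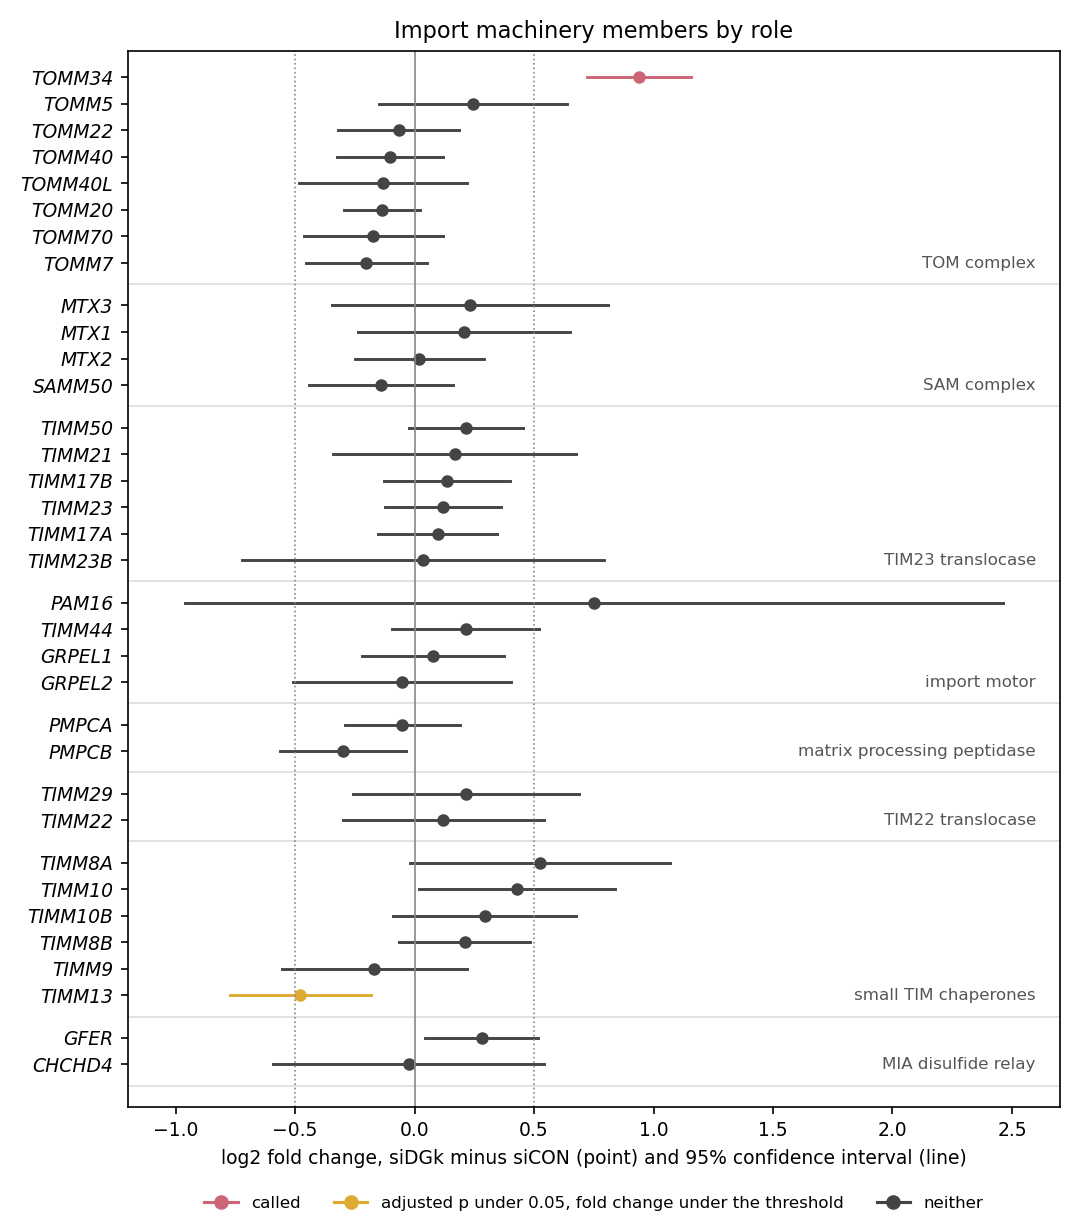
Log2 fold change (siDGk minus siCON; point) and 95% confidence interval (line) of the 34 import genes tested, grouped by role, with dotted lines at ±0.5. TOMM34 is the called member, TIMM13 passes the adjusted p with a fold change short of the threshold, and PAM16 has the widest interval, −0.96 to 2.46.

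TOMM34 (ENSG00000025772.7; GRCh38 chr20:44942130-44960397, minus strand) encodes a cytosolic cochaperone that binds Hsp70 and Hsp90 and takes part in delivering precursors, and it is not a subunit of the pore. Its level was 56.7, 65.1 and 59.8 CPM in siCON 1 to 3, and 116, 117 and 115 CPM in siDGk 1 to 3. Each siDGk library lay well above every siCON library, and the 3 siDGk libraries were close together. The mean rose from 60.5 ± 4.22 to 116 ± 1.38 CPM (SD, n = 3), a 1.92-fold difference with a 95% confidence interval of 1.65 to 2.23. The log2 fold change was 0.94 (SE 0.10; edgeR adjusted p = 2.57e-06). Without siDGk 1, the library with the most genes detected, it was 0.92. No other annotated gene shares exon bases with TOMM34.

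The subunits of the TOM pore did not follow TOMM34. TOMM20, the presequence receptor, averaged 416.5 ± 31.0 CPM in siCON against 379 ± 2.50 CPM in siDGk cells, with a log2 fold change of −0.14 (95% confidence interval −0.30 to 0.02). The 3 siDGk libraries lay just below the lowest siCON library. TOMM70, the receptor for carrier precursors, had a log2 fold change of −0.17, and TOMM22, the central receptor, −0.07. The small subunit TOMM7 had −0.20 and TOMM5 0.24, and none of these passed the test. TOMM20L, a TOMM20 relative, had 5 counts in siCON 3 and 0 in the other 5 libraries, and was not tested. The small subunit TOMM6 was not analysed here.

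The pore protein TOMM40 was at 113, 133 and 122 CPM in siCON 1 to 3. In siDGk 1 to 3 it was at 125, 118 and 99.5 CPM. Its paralog TOMM40L was at 31.7, 42.9 and 30.4 CPM in siCON and at 33.4, 31.0 and 31.7 CPM in siDGk cells. The groups overlapped for both genes, with log2 fold changes of −0.10 and −0.13. On the opposite strand NR1I3 shares exon bases with TOMM40L, and it had at most 15 counts in any library.

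In the SAM complex 0 of 4 members passed the adjusted p, beside 19.7% of all genes tested. SAMM50, its barrel-shaped core, had a log2 fold change of −0.14, and MTX2, a metaxin on the cytosolic side, 0.02. MTX1, the partner of MTX2, was at 19.2, 15.5 and 16.0 CPM in siCON and at 15.8, 22.6 and 20.2 CPM in siDGk cells. MTX3, the least abundant metaxin, was at 11.9, 8.21 and 9.82 CPM in siCON and at 10.3, 14.9 and 10.1 CPM in siDGk cells. For both metaxins siDGk 2 was the highest library and the groups overlapped.

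Of the 6 TIM23 members 0 passed the adjusted p, beside 19.7% of all genes tested. All 6 had positive log2 fold changes, from 0.03 to 0.21, as did 7450 of all 14476 genes tested. For each of the 6 members this direction held under the other normalizations. TIMM23B turned negative without siCON 2 (−0.16) or siDGk 3 (−0.33). Without siCON 2 TIMM17A had 0.0030, and without siDGk 3 TIMM21 had 0.033 and TIMM17B 0.041. TIMM50, the receptor that takes precursors from the TOM exit, was at 61.0, 61.4 and 58.2 CPM in siCON and at 68.4, 73.5 and 67.8 CPM in siDGk cells. Its groups did not overlap, with a log2 fold change of 0.21 (edgeR adjusted p = 0.213). The channel protein TIMM23 had 0.12 and TIMM21, which links TIM23 to the respiratory chain, 0.17.

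TIMM23B is a near-identical copy of TIMM23 on the same chromosome, and reads that match both could not be assigned, so the level of each is uncertain. TIMM23B had 76 to 242 counts a library and TIMM23 604 to 1430. Summed over the 6 members, siCON cells held 261 ± 14.2 CPM, against 287 ± 10.2 CPM in siDGk cells (SD, n = 3).

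TIMM17A and TIMM17B are alternative subunits of the channel. TIMM17A was at 73.1, 58.1 and 69.6 CPM in siCON and at 72.6, 68.9 and 73.1 CPM in siDGk cells. TIMM17B was at 51.6, 51.4 and 53.3 CPM in siCON and at 55.5, 52.3 and 63.7 CPM in siDGk cells. Both sets of libraries overlapped, with siCON 2 lowest for TIMM17A and siDGk 3 highest for TIMM17B.

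The import motor couples TIM23 to mitochondrial Hsp70. TIMM44, which tethers the chaperone at the channel, had a log2 fold change of 0.21. PAM16, a J-like regulator of the motor, was at the low end of detection, with 21, 28 and 14 counts in siCON and 45, 35 and 45 in siDGk cells. Every siDGk library lay higher in CPM, 2.07 to 2.43 against 1.12 to 1.49. The log2 fold change of 0.75 had an interval of −0.96 to 2.46, which holds 0 (edgeR adjusted p = 0.604). It was 0.28 in DESeq2 with shrunken fold changes. Of the exon bases of PAM16, 22.4% are shared with the readthrough gene CORO7-PAM16 on the same strand.

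The nucleotide exchange factors GRPEL1 and GRPEL2 release the motor chaperone from its substrate. GRPEL1 was at 55.3, 39.7 and 49.7 CPM in siCON and at 48.8, 51.4 and 52.3 CPM in siDGk cells. GRPEL2 was at 17.4, 14.5 and 14.7 CPM in siCON and at 13.5, 16.4 and 15.1 CPM in siDGk cells. Neither separated the groups, with log2 fold changes of 0.08 and −0.05.

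The matrix processing peptidase is a dimer of PMPCA and the catalytic PMPCB. PMPCB was at 62.7, 59.6 and 63.5 CPM in siCON and at 56.8, 48.0 and 46.1 CPM in siDGk cells. All 3 siDGk libraries lay lower, with a log2 fold change of −0.30 that did not pass the correction (SE 0.13, unadjusted p = 0.0288 and adjusted p = 0.111 by edgeR). Of the exon bases of PMPCB, 12.5% are shared with other genes, among them PSMC2 on the same and DNAJC2 on the opposite strand. PMPCA was at 80.2, 80.2 and 79.2 CPM in siCON and at 81.7, 65.9 and 83.4 CPM in siDGk cells. It was lower in siDGk 2 and close to siCON in the other 2, with a log2 fold change of −0.05.

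In the carrier branch, the TIM22 channel protein TIMM22 and its partner TIMM29 had log2 fold changes of 0.12 and 0.22. Their groups overlapped and neither passed the test. TIMM22 had 0.010 without siDGk 2, and TIMM29 had 0.44 without siCON 1 and 0.0027 without siCON 2. The small TIM chaperones work as ring-shaped hexamers. Their log2 fold changes ran from −0.48 to 0.53, and 2 of 6 lay within 0.25 of 0.

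TIMM13 (ENSG00000099800.7; GRCh38 chr19:2425625-2427586, minus strand) pairs with TIMM8A in one hexamer. It was at 59.7, 73.8 and 73.5 CPM in siCON and at 58.5, 42.5 and 47.4 CPM in siDGk cells. The groups did not overlap, but siCON 1 and siDGk 1 were close to each other. Group means were 69.0 ± 8.09 and 49.4 ± 8.19 CPM (SD, n = 3), and the log2 fold change was −0.48 (SE 0.14; edgeR adjusted p = 0.0208), lower in 3 of 3 siDGk libraries and short of the fold threshold. It met the full call rule without siCON 1 (−0.57) or siDGk 1 (−0.63). It missed the adjusted p without siCON 2 (0.0809), siCON 3 (0.110), siDGk 2 (0.0960) or siDGk 3 (0.0570), and over all alternatives that p ranged from 0.00485 to 0.110.

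Of the exon bases of TIMM13, 20.1% are shared with TMPRSS9, a serine protease gene on the opposite strand, and the counting did not use strand. TMPRSS9 was singled out after its values were seen. Its level ran from 18.9 to 20.4 CPM in siCON and from 7.45 to 13.5 CPM in siDGk cells, a log2 fold change of −0.92 (edgeR adjusted p = 0.0112). Reads of the shared bases cannot be assigned to either gene, and the part of this overlap in the TIMM13 value was not tested.

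TIMM8A, the partner of TIMM13, was at 7.64, 10.4 and 10.9 CPM in siCON and at 12.3, 13.1 and 16.0 CPM in siDGk cells. All siDGk libraries lay higher, with a log2 fold change of 0.53 whose interval of −0.02 to 1.07 reached 0 (edgeR adjusted p = 0.179). The related TIMM8B was at 52.7, 63.8 and 51.5 CPM in siCON and at 56.9, 69.2 and 68.5 CPM in siDGk cells, and its groups overlapped. Within the hexamer that carries the bulk of the carriers, TIMM10 had a log2 fold change of 0.43 and TIMM9 −0.17, and the membrane-bound TIMM10B had 0.29. TIMM10 was at 23.1, 20.0 and 31.8 CPM in siCON and at 28.0, 33.4 and 39.0 CPM in siDGk cells. TIMM9 was at 22.0, 31.9 and 26.3 CPM in siCON and at 24.7, 22.7 and 23.9 CPM in siDGk cells. TIMM10, TIMM9 and TIMM10B did not pass the adjusted p, and the unadjusted p of TIMM10 was 0.0411 in the edgeR fit.

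**Figure D3:**
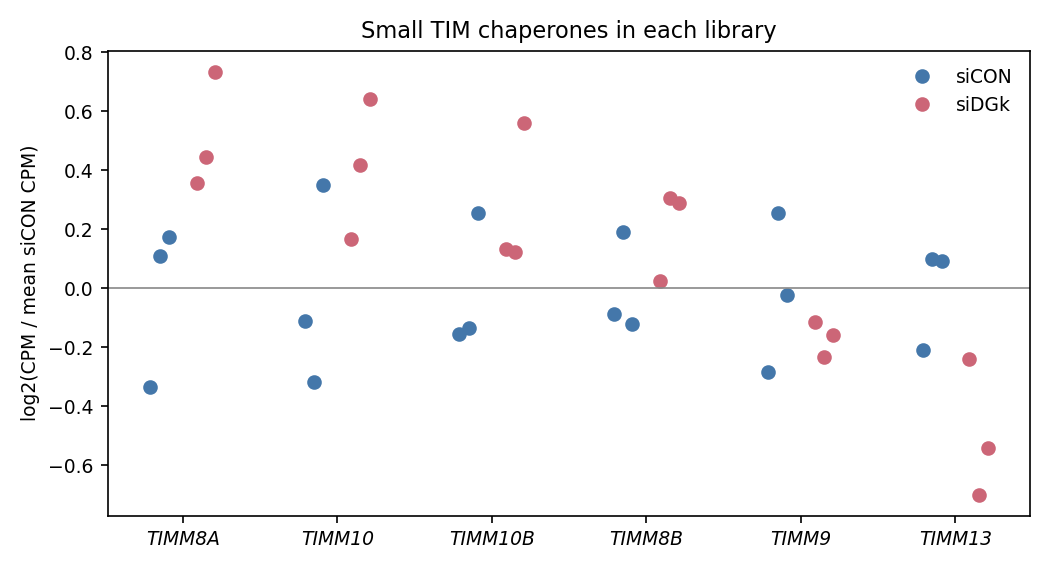
The 6 small TIM chaperones in each library, as log2 of the CPM over the mean siCON CPM of that gene, with 1 point per library. TIMM8A lies higher and TIMM13 lower in all 3 siDGk libraries, and the groups overlap for the other 4.

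The MIA relay has the oxidoreductase CHCHD4 and the sulfhydryl oxidase GFER, which reoxidizes it. GFER, also known as a liver regeneration factor, was at 62.6, 60.1 and 69.9 CPM in siCON and at 75.6, 76.1 and 81.8 CPM in siDGk cells. All siDGk libraries lay higher, but the log2 fold change of 0.28 did not pass the correction (SE 0.11; unadjusted p = 0.0231 and adjusted p = 0.0945 by edgeR). The exon bases it shares with an unnamed gene on the opposite strand make reads of the pair inseparable without strand. CHCHD4 had a log2 fold change of −0.02 with overlapping groups.

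A set of 6 pairs of related or partner genes was compared by their log2 CPM ratio in each library, to ask whether one copy moved against the other. With 3 libraries against 3, a two-sided exact permutation test cannot give a p below 0.1, so none of these could pass 0.05. PMPCA/PMPCB had groups that did not overlap, at 0.37 ± 0.06 in siCON and 0.61 ± 0.21 in siDGk cells (SD, n = 3; exact p = 0.1, adjusted over the 6 pairs 0.6). The difference of 0.24 was 0.12 without siDGk 3. The other 5 overlapped, with differences of 0.31 for TIMM8A/TIMM8B, 0.14 for GRPEL1/GRPEL2, 0.01 for TOMM40/TOMM40L, and −0.03 for TIMM17A/TIMM17B and for MTX1/MTX3. The exact p of these 5 ran from 0.2 to 1.

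Hexamer partners were added to this comparison after the values were seen, and so have no test. The TIMM8A/TIMM13 log2 ratio was −2.95, −2.82 and −2.74 in siCON and −2.24, −1.69 and −1.56 in siDGk cells. Every siDGk library lay above every siCON library, with a difference of 1.01. The TIMM10/TIMM9 log2 ratio was 0.07, −0.67 and 0.27 in siCON and 0.18, 0.55 and 0.70 in siDGk cells, with a difference of 0.59 (0.30 without siCON 2) and overlapping groups. The log2 ratio of the J proteins DNAJC15 and DNAJC19, described below, was added likewise, and its difference of −0.12 was 0.13 without siDGk 3.

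Levels of the 34 members tested were also set per kilobase of annotated exon, so that genes could be compared with each other. In siCON cells the level ran 215-fold from PAM16, at 0.565 ± 0.0797 CPM per kb, to TOMM20, at 121 ± 9.01 CPM per kb (SD, n = 3). TOMM20 lay clear of the next gene, TIMM23, whose libraries overlapped those of TOMM7. Of the 33 neighbouring pairs in this order 5 did not overlap, so most ranks are not distinct. TOMM34 went from rank 8 in siCON to rank 2 in siDGk cells, and no other member moved by more than 3 ranks. Annotated exons include isoforms that these cells may not use, so the order is approximate.

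**Figure D4:**
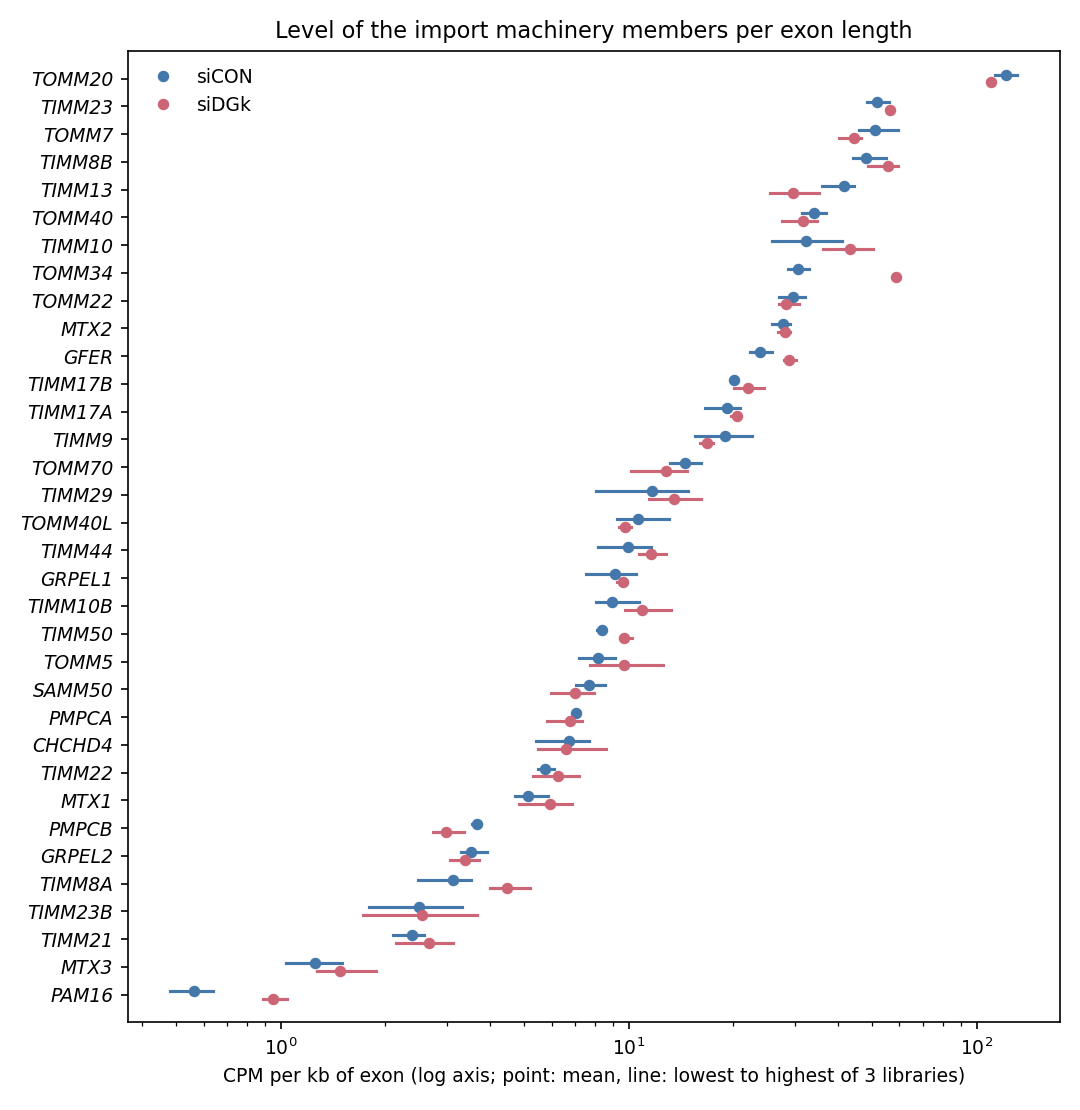
Level of each of the 34 import genes tested in CPM per kb of exon on a log axis, in order of the siCON mean; points are means and lines run from the lowest to the highest of 3 libraries. TOMM34 is at 30.7 in siCON and 58.8 in siDGk cells, and PAM16 is the lowest of the 34 in both.

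The promoters of TOMM34 and TIMM13 are shown because these were the members past the adjusted p, in opposite directions. Each runs 5′ to 3′ on the gene's strand from 250 bases before to 50 after the RefSeq start site (GRCh38.p14, chr20:44960348-44960647 and chr19:2427537-2427836), with capitals on matches to the motifs searched.
TOMM34 promoter: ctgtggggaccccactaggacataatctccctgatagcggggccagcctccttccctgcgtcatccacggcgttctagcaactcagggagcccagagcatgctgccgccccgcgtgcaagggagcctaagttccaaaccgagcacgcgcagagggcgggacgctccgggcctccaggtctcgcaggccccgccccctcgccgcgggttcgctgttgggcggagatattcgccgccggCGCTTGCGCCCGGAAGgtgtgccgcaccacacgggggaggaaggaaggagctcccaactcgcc
TIMM13 promoter: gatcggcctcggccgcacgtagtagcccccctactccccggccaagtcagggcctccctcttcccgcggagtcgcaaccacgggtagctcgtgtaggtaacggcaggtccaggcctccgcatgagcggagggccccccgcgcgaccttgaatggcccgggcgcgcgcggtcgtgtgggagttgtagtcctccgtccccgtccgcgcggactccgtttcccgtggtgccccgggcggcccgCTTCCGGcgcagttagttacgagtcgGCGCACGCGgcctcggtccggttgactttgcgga
In TOMM34 an NRF1 core starting at −13 runs directly into an ETS core starting at −4, and the 2 matches do not overlap. In TIMM13 an ETS core starts at −10 and an NRF1 core at 17. Both cores are also in the promoters of TOMM20, TIMM29 and GRPEL2, which did not pass the test.

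The motifs were searched on both strands in the 32 members with a promoter in the RefSeq table, in 10090 tested genes with one and in all 27305 genes of the table. The NRF1 core (GCGCANGCG) was in 11 of 32 members (34.4%), beside 16.8% of tested genes and 9.02% of all. The ETS core (CCGGAAG) was in 14 (43.8%), beside 22.2% and 12.2%, and the YY1 core (AANATGGCG) in 6 (18.8%), beside 8.13% and 3.85%. The CCAAT box was in 37.5% of members and 42.7% of tested genes, and the E-box (CACGTG) in 12.5% of both. The letters TGATGNAA were in 2 members (6.25%, beside 2.85% of tested genes), and GAANNTTC in 0 of 32 (6.52% of tested genes). A match is a run of letters, not a bound site, and these shares were not tested.

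Proteins that work with the import machinery, but are outside the rule, were read from the same fit. Of 17 import partners 7 had positive and 10 negative log2 fold changes, beside 7450 and 7026 of all genes tested. Summed over the 17 partners, the level was 3280 ± 35.9 CPM in siCON against 2945 ± 81.5 CPM in siDGk cells (SD, n = 3). HSPD1 alone held 1644 and 1376 CPM of these sums. Among the 17, 2 were called (11.8%, beside 14.1% of all genes tested), both higher. Both are J proteins of the inner membrane that act with the motor chaperone. Another J protein of this list, DNAJC11, had a log2 fold change of −0.32 with overlapping groups (unadjusted p = 0.0364 and adjusted p = 0.131 by edgeR). J proteins as a group were not tested. DNAJC15 was at 31.9, 32.5 and 40.4 CPM in siCON and at 49.8, 54.8 and 54.2 CPM in siDGk cells. The groups did not overlap, and the log2 fold change was 0.60 (SE 0.14; edgeR adjusted p = 0.00516). DNAJC19 was at 12.7, 16.0 and 15.2 CPM in siCON and at 17.3, 23.0 and 35.6 CPM in siDGk cells. All siDGk libraries lay higher, but siDGk 3 far more than siDGk 1, and the log2 fold change was 0.79 (SE 0.24; edgeR adjusted p = 0.0266). The call of DNAJC19 was lost without siCON 1 (0.70), siCON 3 (0.82) or siDGk 3 (0.45), with adjusted p of 0.106, 0.0818 and 0.232 by edgeR and a range of 0.00366 to 0.232 over all alternatives.

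**Figure D5:**
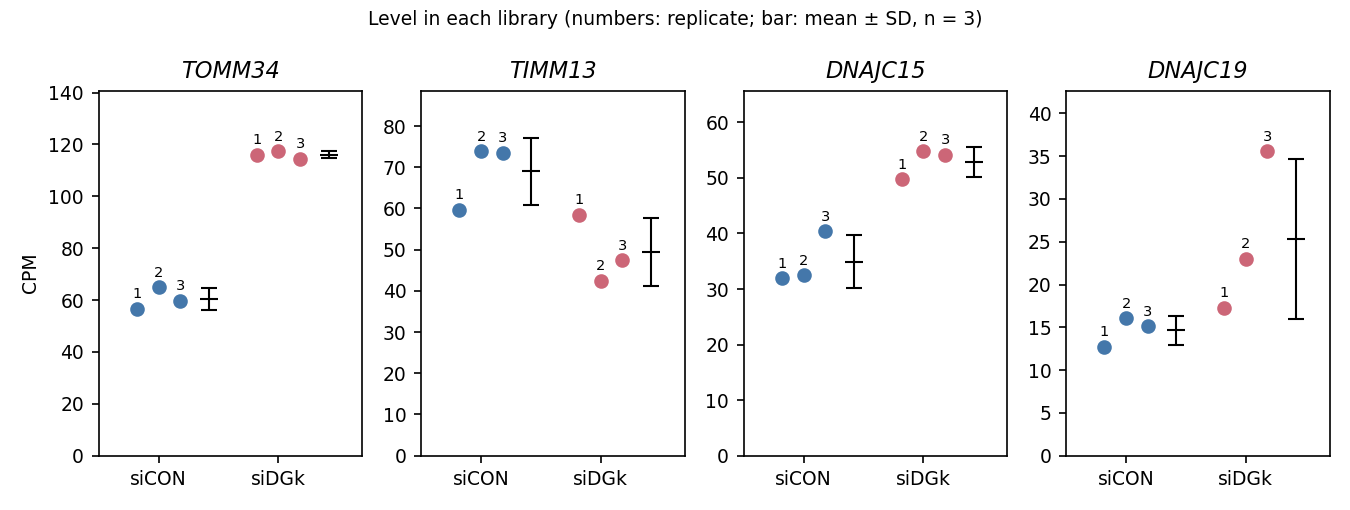
CPM of TOMM34, TIMM13, DNAJC15 and DNAJC19 in each library (points, numbered by replicate), with the mean and SD of 3 libraries beside them. The groups do not overlap for any of the 4 genes, and the siDGk libraries of DNAJC19 are spread from 17.3 to 35.6.

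Past the adjusted p but short of the fold threshold were the matrix chaperonin subunits HSPE1, with a log2 fold change of 0.29, and HSPD1, with −0.26. The mean of HSPD1 was 1644 ± 45.8 CPM in siCON against 1376 ± 70.9 CPM in siDGk cells (SD, n = 3). The motor chaperone HSPA9 had −0.20 and did not pass. In the MICOS complex, which shapes the inner membrane, 0 of 7 genes were called, beside 14.1% of all genes tested. CHCHD3 of this complex passed the adjusted p with −0.44, as did 19.7% of all genes tested. MINOS1 had 0.79 on 45 to 147 counts a library, with groups that did not overlap (unadjusted p = 0.0419 and adjusted p = 0.145 by edgeR). Of the 7 MICOS genes 3 had positive and 4 negative log2 fold changes. Of 14 mitochondrial proteases and scaffolds 0 were called and 0 passed the adjusted p, beside 14.1% and 19.7% of all genes tested. Of 13 cytosolic chaperones that hold precursors 0 were called, beside 14.1% of all genes tested. Of the same 13, DNAJB1 (0.43) and DNAJA2 (0.27) passed the adjusted p, beside 19.7% of all genes tested. By edgeR an unadjusted p under 0.05 was found in 8 of 17 import partners, 3 of 7 MICOS genes, 1 of 14 proteases and scaffolds and 3 of 13 cytosolic chaperones, beside 30.6% of all genes tested.

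The labelled cell type was checked by its markers. All 10 hepatocyte markers were detected in siCON cells, with a summed level of 56291, 50986 and 49577 CPM in siCON 1 to 3. In siDGk 1 to 3 the sum was 30210.3, 27053 and 25721 CPM. Of the 10 markers 8 were called lower, beside 6.68% of all genes tested, among them ALB (log2 fold change −1.58), FGB (−1.90), TTR (−1.61) and AFP (−1.41). APOB (−1.46), APOA1 (−1.05), TF (−0.95) and HNF4A (−0.51) were the others. APOA2 passed the adjusted p with −0.23, and SERPINA1 had 0.02 with overlapping groups and group means of 7770 CPM (siCON) and 7875 CPM (siDGk). In bulk RNA, fewer cells of a type and less RNA per cell cannot be told apart, and the part of this shift in the import values was not tested.

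Of 10 markers of immune, stromal and endothelial cells 9 had enough counts for a test. The sum was 1625, 1716 and 1712 CPM in siCON and 1936, 1845 and 1790.3 CPM in siDGk cells, nearly all of it LYZ, at 1610 to 1896 CPM in every library. COL1A1 was called higher, with a log2 fold change of 4.04, and PDGFRB lower, with −1.02. VWF was at 31.4 CPM in siDGk 2 and at most 1.41 CPM in the other 5 libraries, and PECAM1 at 15.9 CPM in siDGk 2 and at most 2.81 CPM elsewhere. Counts were 0 for KDR in all siCON libraries and siDGk 3, for VWF in siCON 3 and siDGk 3, for COL1A2 in siCON 2, siCON 3 and siDGk 3, for CD68 in siCON 3, for PECAM1 in siCON 2 and for CD3E in siDGk 3. PTPRC was at 0.191 to 7.94 CPM, highest in siDGk 2. Without siDGk 2, TOMM34 had a log2 fold change of 0.93 and TIMM13 −0.38.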

How the data were processed

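The authors deposited raw read counts per gene for 6 libraries. Per the labels' processing notes and the study's methods, paired-end reads were cleared of tRNA, rRNA, adapter and spike-in sequence, aligned to GRCh38 with STAR 2.6.1, filtered for low complexity, and counted on Gencode genes with featureCounts 1.6.5 at default settings and a minimum read quality. The notes also name Bowtie 1.1.2. By default featureCounts ignores strand and leaves out reads that match several places or genes, so overlapping genes and near-identical copies lose counts. Library kit and strandedness were not given in the sources used here. Sample titles gave the groups, since the treatment label names the control siRNA for all 6 samples.

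Counts were fitted across all genes with edgeR 4.0.16 in R 4.3.3 (filterByExpr with a minimum count of 10, TMM, robust quasi-likelihood test, group as the only term), with Benjamini-Hochberg adjustment over 14476 genes. Thresholds for a call were 0.05 for the adjusted p and ±0.5 for the log2 fold change, intervals cover 95%, and log2 ratios used a prior count of 2. Total counts of 10527216 to 21334876 set a floor (3 counts) of 0.138 to 0.286 CPM, for counting error only. Alternatives were DESeq2 1.42.0 with and without shrinkage, RLE and upper-quartile scaling, mitochondrial genome genes left out, no filter, a mean CPM above 10, a replicate block, a fold threshold of 1 and each library left out. Exon lengths and overlaps came from Gencode 44, a later release than the counts used. Every member is named, those past a threshold or in a pair with each library's value, and of the other lists the called genes are named; further genes of those lists and TMPRSS9 were named after their values were seen. Members and lists were chosen with earlier results of these data known.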

Additional observations from a re-analysis of the deposited data

How the results depend on the processing

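TOMM34, DGUOK and DNAJC15 were called in all 14 alternatives that kept the fold threshold, with log2 fold changes of 0.89 to 0.99, −2.72 to −2.25 and 0.54 to 0.72. Over the 34 members, 459 of 474 values under an alternative kept their sign and their side of the call rule. Another 2 came past it (TIMM13, leave-one-out range −0.63 to −0.38) and 13 changed sign, all with 1 library left out: GRPEL1 (−0.049 to 0.19), MTX2 (−0.025 to 0.057), TOMM40L (−0.22 to 0.044), CHCHD4 (−0.26 to 0.084), GRPEL2 (−0.12 to 0.040), PMPCA (−0.12 to 0.049) and TIMM23B (−0.33 to 0.30). Another 19 members kept their sign but moved by over 1.5 times with 1 library left out: TIMM21 (0.033 to 0.30), TOMM22 (−0.14 to −0.0015), SAMM50 (−0.25 to −0.038), TIMM9 (−0.29 to −0.017), TIMM44 (0.094 to 0.34), TIMM17B (0.041 to 0.20), TOMM40 (−0.19 to −0.018), TIMM10B (0.13 to 0.43), TIMM17A (0.0030 to 0.17), TIMM29 (0.0027 to 0.44), TIMM8B (0.16 to 0.32), TOMM70 (−0.30 to −0.036), MTX1 (0.091 to 0.32), TOMM20 (−0.18 to −0.076), TOMM5 (0.021 to 0.37), MTX3 (0.029 to 0.39), TIMM22 (0.010 to 0.21), TOMM7 (−0.27 to −0.074) and TIMM23 (0.075 to 0.18). With all libraries kept, moves of over 1.5 times were those of PAM16 (0.28) and TIMM23B (0.017) with shrunken fold changes, of TIMM23B (0.0026) and CHCHD4 (−0.042) with the replicate block, and of MTX2, which had 0.0099 to 0.012 in 5 alternatives. With 1 library left out, 1 to 2 members were called, 1 to 2 passed the adjusted p, and the members' median ran from 0.039 to 0.17. For the log2 ratios the same was done, a choice added after seeing the data: TIMM17A/TIMM17B ran from −0.12 to 0.047, TOMM40/TOMM40L from −0.089 to 0.097 and MTX1/MTX3 from −0.15 to 0.044. GRPEL1/GRPEL2, TIMM8A/TIMM8B and PMPCA/PMPCB kept their sign but moved by over 1.5 times (0.048 to 0.20, 0.19 to 0.46 and 0.12 to 0.32). Of the pairs added after seeing the data, TIMM8A/TIMM13 ran from 0.87 to 1.21, TIMM10/TIMM9 from 0.30 to 0.78 and DNAJC15/DNAJC19 from −0.32 to 0.13. The cause of these changes was not tested. At an absolute log2 fold change above 1, 819 genes and 0 members were called. Replicate numbers did not pair the libraries (correlations of same-numbered deviations 0.024, 0.017 and −0.0022, and siCON 3 did not correlate best with siDGk 3); with the replicate block 2077 genes were called against 2041, and the import calls did not change. The filter at a mean CPM above 10 left out PAM16 and TIMM23B, which have no value there.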
